A study of Mus musculus with 8 samples.

Results

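Voltage-gated potassium (Kv) channels and their accessory subunits were examined in dorsal root ganglia (DRG) of a Fabry disease (FD) mouse model. The members were all genes on the array whose symbol starts with Kcna, Kcnb, Kcnc, Kcnd, Kcnf, Kcng, Kcnh, Kcnq, Kcns, Kcnv, Kcne or Kcnip, which gave 54 of 34763 gene symbols. Of these, 40 encode pore subunits (67 probes), 12 encode accessory subunits (18 probes) and 2 are noncoding RNAs named after a channel gene (Kcnd3os and Kcnq1ot1, 3 probes). FD DRGs came from male alpha-Gal A(-/0) mice, which lack the lysosomal enzyme alpha-galactosidase A throughout the body, and control DRGs from male wildtype mice, all aged 20 to 24 weeks. The labels give the strain of both groups as C57BL/6J, while the methods of the study give the background of the FD mice as C57BL/6. Each genotype had 8 mice. Lumbar DRGs of the levels L3 to L5 were pooled from 2 mice per sample, giving 4 FD and 4 wildtype samples, each on 1 array of the same slide. FD and wildtype mice were taken from separate inbred colonies, so that genotype and colony cannot be told apart in these samples. The question was which channel genes of sensory ganglia differ in expression between FD and wildtype mice.

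A Kv channel is built from 4 pore subunits that open when the membrane depolarizes and let potassium leave the cell. In sensory neurons these channels shorten the action potential and limit repetitive firing, and some of them contribute to the resting potential. Some pore subunits (the Kcnf, Kcng, Kcns and Kcnv genes) are electrically silent alone and act only in assemblies with Kcnb subunits. Accessory subunits form no pore. The cytoplasmic Kcnab proteins (Kv beta) bind Kcna channels, the calcium-binding Kcnip proteins (KChIP) bind Kcnd channels, and the Kcne proteins, small peptides with a single membrane-spanning segment, alter the gating of several Kv channels.

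The values are log2 signals after quantile normalization, and each gene is represented by its brightest probe unless another probe is named. A gene was tested where its probe was well above background on all 8 arrays, and was called where the adjusted p of limma was under 0.05 after Benjamini-Hochberg adjustment over all 29432 tested probes. Levels of different probes cannot be compared with each other. Arrays showed 56.5% to 60.8% of probes well above background, and precision is bounded by there being 8 arrays. Of 40 pore subunit genes 39 were tested, and of 12 accessory subunit genes 10 were tested. Kcnv2 and Kcne1 were not well above background on any array, and Kcne2 was so on 2 FD arrays and on 0 wildtype arrays. The probe for the disrupted gene, Gla, read between 16.51 and 16.71 in FD and between 16.49 and 16.72 in wildtype samples (log2 fold change -0.03, limma adjusted p = 0.879). Its probe was designed to the end of the gene, and which part of Gla is disrupted is not given in the sources used here, so that it does not check the genotype labels. Wildtype 1 stood apart. It was the highest of the 8 samples in 23.3% and the lowest in 27.7% of all tested genes.

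Among the accessory subunits, Kcne3 was upregulated in FD DRGs about 2-fold, and Kcne1l and Kcnip2 were downregulated. These 3 of 10 tested genes were called, compared with 3.12% of all tested genes (657 of 21063). None of the 39 tested pore subunit genes was called by its brightest probe. Counted by probe, 4 of 15 tested accessory probes and 1 of 58 tested pore probes were called, compared with 3.07% of all tested probes. The study had already named Kcne3 and Kcnip2 from these same samples, so that their calls are not independent evidence. In bulk ganglia, fewer cells of a type and less RNA per cell cannot be told apart.

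For each of the 3 called genes, a probe taken to lie in protein-coding sequence is shown to identify the gene that was measured. Each has 60 bases, printed 5′ to 3′, with positions in mouse build mm9 as the array gives them. Each can be read without a stop codon in at least 1 forward frame. The brighter Kcne3 and Kcne1l probes, which are not printed, can be so read too. An open frame therefore does not separate coding from noncoding probes. The Kcne3 probe lies on the plus strand at chr7:107332867-107332926, the Kcne1l probe on the minus strand at chrX:138740331-138740390, and the Kcnip2 probe on the minus strand at chr19:45868494-45868553. For Kcnip2 this is the probe of the call, and for Kcne3 it is the other of 2 called probes. For Kcne1l it is the dimmer probe, which was not called, while the call rests on a probe that is not printed. In the Kcne3 and Kcne1l probes, capitals mark the longest run of bases that both share (10 bases), which falls in the stretch encoding the membrane-spanning segment. In the Kcnip2 probe, capitals mark the 36 bases that encode a calcium-binding loop (EF-hand), the element by which KChIP proteins sense calcium.
Kcne3: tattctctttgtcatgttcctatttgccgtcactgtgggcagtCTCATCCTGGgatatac
Kcne1l: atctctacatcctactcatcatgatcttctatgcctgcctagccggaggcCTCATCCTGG
Kcnip2: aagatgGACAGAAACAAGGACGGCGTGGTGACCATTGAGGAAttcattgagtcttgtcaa

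Kcne3 encodes a peptide known to associate with several pore subunits, among them those of the Kcnq and Kcnc families. Its brighter probe (chr7:107333062-107333121) read 7.24, 7.09, 7.38 and 7.43 in FD samples 1 to 4 and 6.22, 6.27, 6.50 and 6.09 in wildtype samples 1 to 4. Every FD sample was above every wildtype sample, and the gap between the groups was wider than the spread within either. The mean was 7.29 ± 0.15 (SD, n = 4) in FD and 6.27 ± 0.17 (SD, n = 4) in wildtype DRGs, a log2 fold change of 1.02 with an SE of 0.11 (2.02-fold, 95% interval 1.71 to 2.39, limma adjusted p = 0.00147). The other probe, whose sequence is printed above, read 7.20, 7.15, 6.94 and 7.13 in FD and 6.33, 6.22, 6.17 and 6.43 in wildtype samples. It again placed all FD samples above all wildtype samples (1.77-fold, log2 fold change 0.82 with SE 0.081, limma adjusted p = 0.0012). The 2 probes thus gave the same direction with separate bases of the same gene. Within the row of the slide that held 3 FD samples and 1 wildtype sample the brighter probe differed by 1.02 on the log2 scale, and within the row with 1 FD and 3 wildtype samples by 1.14. Kcne3 stayed called under all 18 alternative settings, but the size of the difference depended on the setting. With normexp background correction the log2 fold change was 0.65 by the brighter probe and 0.48 by the other probe. Of 37 other tested genes within 1 Mb of Kcne3, 1 was called, compared with 3.12% of all tested genes.

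Kcnip2 (KChIP2) encodes a calcium-binding partner that raises the surface expression and slows the inactivation of Kcnd channels, which carry a fast transient potassium current. It read 10.29, 10.22, 10.31 and 10.40 in FD samples and 10.85, 10.74, 10.59 and 10.62 in wildtype samples. All FD samples lay below all wildtype samples. The means were 10.3 ± 0.072 (SD, n = 4) and 10.7 ± 0.12 (SD, n = 4), a log2 fold change of -0.39 with an SE of 0.074 (1.31-fold lower, limma adjusted p = 0.0285). Of 44 other tested genes within 1 Mb of Kcnip2, 2 were called, compared with 3.12% of all tested genes. The direction of the Kcnip2 difference held in both rows of the slide, with -0.58 and -0.25. The call was near the threshold. It was lost without any single FD sample (adjusted p 0.0862 without FD 1, 0.098 without FD 2, 0.0765 without FD 3 and 0.0515 without FD 4), without wildtype 2 (0.0601) or without wildtype 4 (0.0518), and with the slide row as a block (0.0539, log2 fold change -0.41).

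Kcne1l (also called Kcne5) encodes an X-linked peptide known to inhibit currents of Kcnq1 channels. Its brighter probe (chrX:138739364-138739423) read 8.27, 8.20, 8.16 and 8.23 in FD samples and 8.47, 9.04, 8.75 and 8.78 in wildtype samples. FD samples were tightly grouped below all wildtype samples, of which wildtype 1 came closest. The means were 8.21 ± 0.047 (SD, n = 4) and 8.76 ± 0.23 (SD, n = 4), a log2 fold change of -0.55 with an SE of 0.11 (1.46-fold lower, limma adjusted p = 0.0344). The other probe read 6.70, 6.60, 6.24 and 6.67 in FD and 6.90, 6.77, 6.63 and 6.97 in wildtype samples, with overlapping groups, a log2 fold change of -0.27 (SE 0.12) and an adjusted p of 0.281 in limma. The difference of the brighter probe was -0.26 and -0.62 within the rows of the slide. Its call was lost without any single FD sample (adjusted p 0.0848 without FD 1, 0.105 without FD 2, 0.0967 without FD 3 and 0.0904 without FD 4), without wildtype 3 (0.0808) or wildtype 4 (0.0837), and with the slide row as a block (0.0779). Kcne1l lies 7.62 Mb from the probe of Gla on the X chromosome. Of 17 other tested genes within 1 Mb of Kcne1l, 0 were called, compared with 3.12% of all tested genes.

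**Figure D1:**
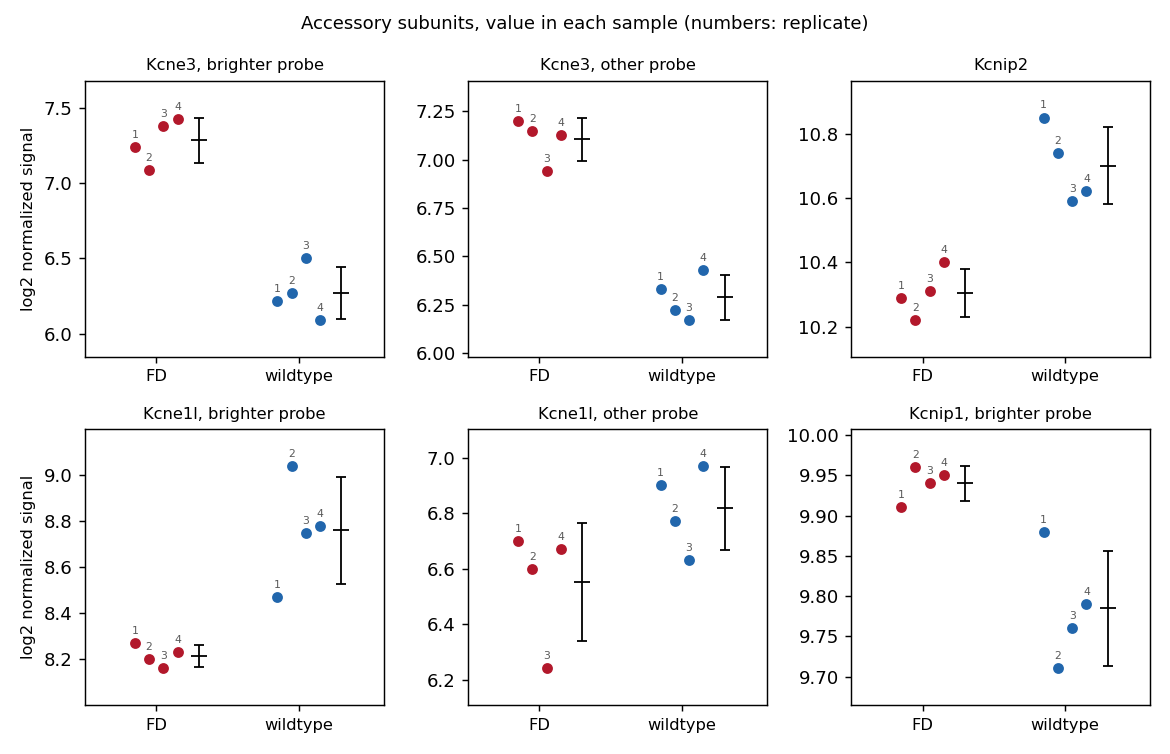
Log2 normalized signal of accessory subunit probes in each of the 4 FD (red) and 4 wildtype (blue) samples, with replicate numbers above the points and the mean ± SD in black; the vertical scale differs between panels and does not start at 0. Both Kcne3 probes and the Kcnip1 probe lie higher in all FD samples, Kcnip2 and the brighter Kcne1l probe lie lower, and the other Kcne1l probe shows overlapping groups.

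The remaining 7 tested accessory genes were not called. Kcnip1, another KChIP, read 9.91, 9.96, 9.94 and 9.95 in FD samples and 9.88, 9.71, 9.76 and 9.79 in wildtype samples. Groups did not overlap, yet the difference was small (log2 fold change 0.16 with SE 0.055, limma adjusted p = 0.183). Its second probe read 8.40, 8.48, 8.27 and 8.30 in FD and 7.93, 8.23, 8.09 and 8.19 in wildtype samples, also without overlap (log2 fold change 0.25 with SE 0.081, limma adjusted p = 0.146). Kcnip4, a KChIP that slows the inactivation of Kcnd channels, read 14.84, 14.84, 14.86 and 14.92 in FD and 14.83, 15.06, 15.01 and 15.04 in wildtype samples (log2 fold change -0.12 with SE 0.065, limma adjusted p = 0.377). The second Kcnip4 probe had the same direction, with every FD sample below every wildtype sample (log2 fold change -0.17 with SE 0.067, limma adjusted p = 0.232). Kcnip3, also known as the transcriptional repressor DREAM, had a log2 fold change of -0.07 (SE 0.073).

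Of the Kv beta subunits, Kcnab1 read 13.83, 13.86, 13.97 and 13.94 in FD and 13.82, 13.98, 13.86 and 13.98 in wildtype samples, and the groups overlapped throughout (log2 fold change -0.01, 95% interval -0.15 to 0.13). Kcnab2 read 8.74, 8.78, 8.51 and 8.74 in FD and 9.75, 8.53, 8.73 and 8.80 in wildtype samples. Its negative log2 fold change of -0.26 (SE 0.24, limma adjusted p = 0.601) rested on the high value of wildtype 1, and without that sample it was 0 to 2 decimals. Kcnab3 and Kcne4 had log2 fold changes of 0.12 (SE 0.11) and 0.22 (SE 0.14) and overlapping groups. Over the 10 tested accessory genes, 4 were positive and 6 negative, with a median log2 fold change of -0.04 compared with 0.019 over all tested genes. In 2 of 10, Kcne3 and Kcnip1, every FD sample exceeded every wildtype sample, compared with 8.62% of all tested genes, and in 2 of 10, Kcne1l and Kcnip2, every FD sample was below, compared with 5.12%.

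**Figure D2:**
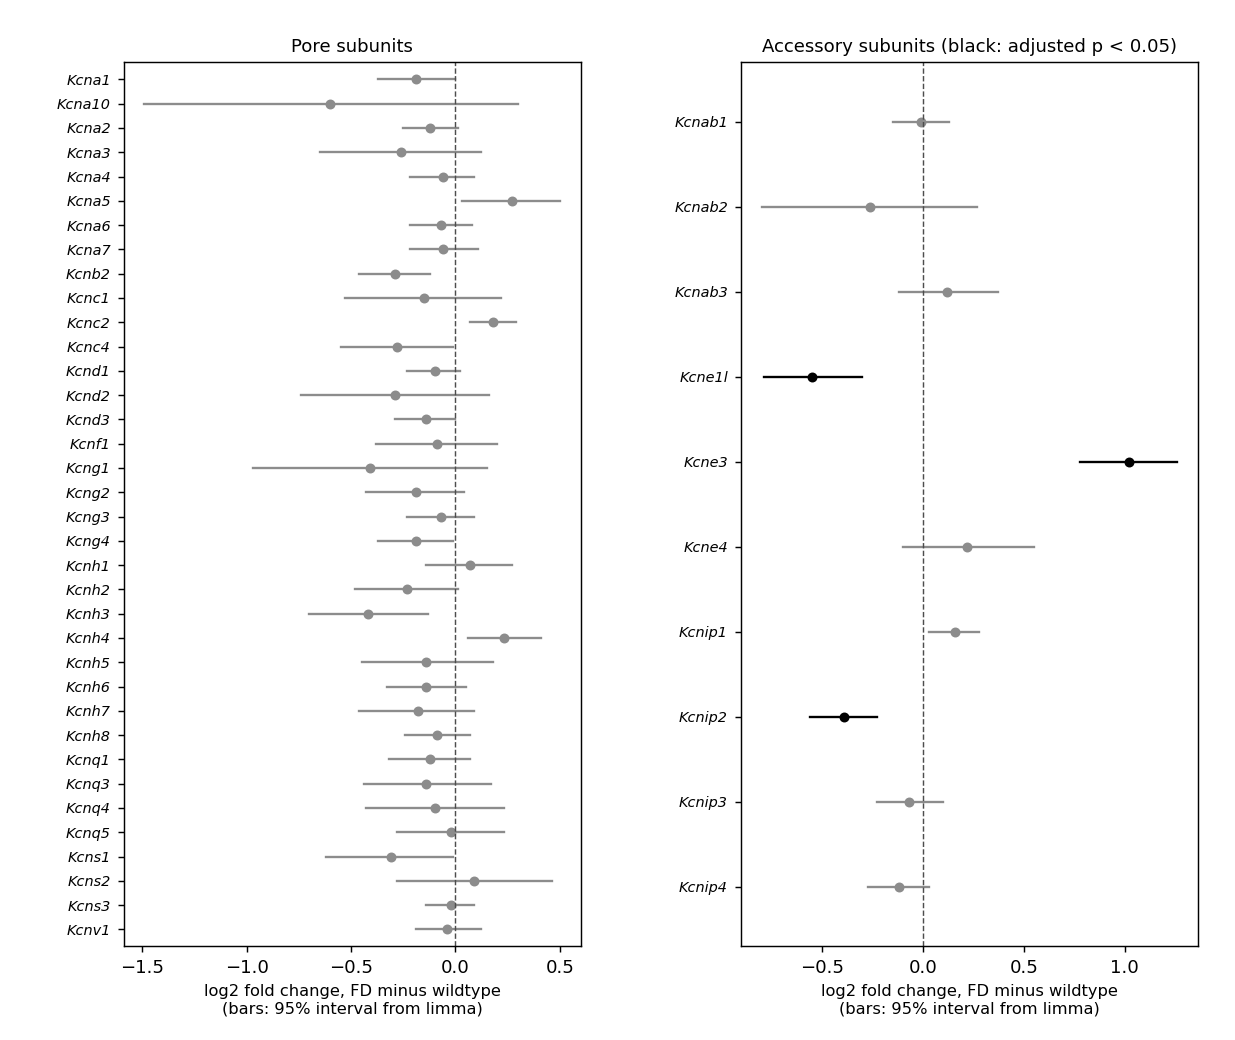
Log2 fold change (FD minus wildtype) with its 95% interval from limma for 36 pore subunit genes (left) and the 10 tested accessory subunit genes (right), each by its brightest probe; black marks an adjusted p under 0.05. Only Kcne3, Kcne1l and Kcnip2 are black, and 31 of the 36 pore subunit points lie left of 0; the horizontal scales of the panels differ.

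The pore subunit values leaned towards lower signals in FD DRGs, without a gene called by its brightest probe. Of 39 tested genes, 32 had a negative and 7 a positive log2 fold change, with a median of -0.124, while of all 21063 tested genes 9335 were negative and 11728 positive, with a median of 0.019. At an unadjusted p under 0.05, 3 pore subunit genes were higher (Kcnc2, Kcna5 and Kcnh4), compared with 10.6% of all tested genes, and 6 were lower (Kcnb2, Kcnh3, Kcnc4, Kcnd3, Kcng4 and Kcns1), compared with 7.11%. Every FD sample was above every wildtype sample in 2 (Kcna5, Kcnc2) and below in 3 (Kcna2, Kcnb2, Kcnh3) of the 39, near the shares of 8.62% and 5.12% over all tested genes. The methods' t-test called 1 (Kcnc2).

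The count of negative pore subunit genes was between 29 and 33 under every alternative, and their median log2 fold change between -0.188 and -0.082. Part of the pattern lay in single samples. The mean deviation of the 39 genes from their own averages was -0.01, -0.01, -0.09 and -0.14 in FD samples 1 to 4 and 0.14, -0.07, 0.09 and 0.10 in wildtype samples 1 to 4, so that wildtype 2 lay among the FD samples. Wildtype 1 was the highest sample in 16 of the 39 genes and FD 4 the lowest in 15, compared with 23.3% and 11.0% of all tested genes. Without wildtype 1, 33 genes were negative with a median of -0.097, and without FD 4, 32 were negative with a median of -0.082. Beside these values, of 9 neuronal marker genes 6 were negative, with a median of -0.04, and Snap25, a presynaptic fusion protein, was called lower (log2 fold change -0.47, limma adjusted p = 0.00443). The mean level of these 9 markers ranged from 14.68 to 14.76 in FD and from 14.71 to 14.88 in wildtype samples. Among the other marker lists, the median log2 fold change was 0.01 for large-diameter neurons, -0.14 for small-diameter neurons and -0.03 for satellite glia. It was -0.14 for Schwann cells, -0.11 for macrophages, -0.13 for endothelium, -0.29 for smooth muscle and -0.08 for fibroblasts. The part of these markers in the pore subunit values was not tested.

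**Figure D3:**
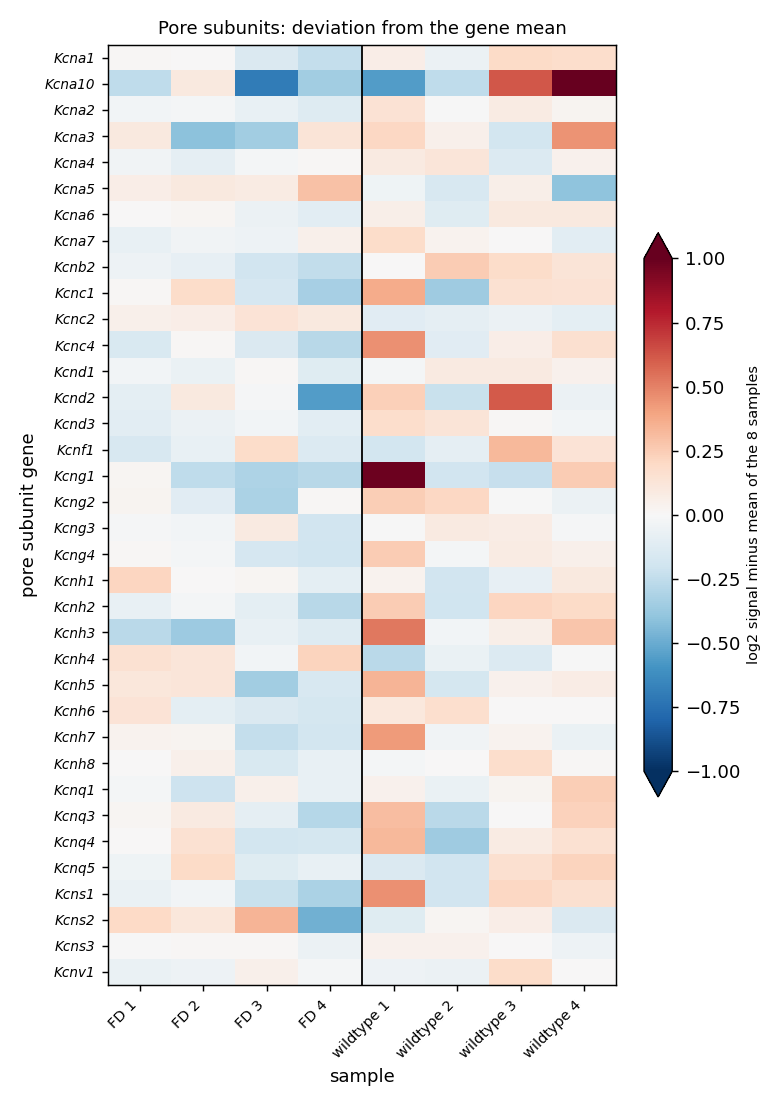
Log2 signal of each of 36 pore subunit genes (rows) in each sample (columns) minus the mean of that gene over the 8 samples; red is above and blue below the mean, and the colour scale ends at 1 and -1. The strongest positive value is that of Kcna10 in wildtype 4, wildtype 1 holds high values in Kcng1 and Kcnh3, and FD 4 is mostly blue.

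The Kcna genes encode Kv1 channels, of which Kcna1 and Kcna2 form the low-threshold channels beneath the myelin sheath next to the nodes of Ranvier. Kcna1 read 15.12, 15.11, 14.96 and 14.87 in FD and 15.17, 15.05, 15.30 and 15.28 in wildtype samples (log2 fold change -0.19 with SE 0.083, limma adjusted p = 0.287). Kcna2 read 11.36, 11.37, 11.31 and 11.26 in FD and 11.53, 11.38, 11.47 and 11.41 in wildtype samples. The Kcna2 groups did not overlap, but FD 2 and wildtype 2 were nearly equal (log2 fold change -0.12 with SE 0.057, limma adjusted p = 0.306). Kcna4, which forms a transient current in small sensory neurons, read 11.91, 11.86, 11.93 and 11.96 in FD and 12.04, 12.07, 11.81 and 11.99 in wildtype samples (log2 fold change -0.06 with SE 0.069). Over the 8 tested Kcna genes, 7 were negative, ranging from -0.60 for Kcna10 to 0.27 for Kcna5. Kcna10 rested on wildtype 4, and its value was -0.23 without that sample. The 2 probes of Kcna5 went in opposite directions (0.27, SE 0.10, and -0.30, SE 0.18).

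Kcnb subunits carry the delayed rectifier current of neurons. Kcnb2 read 10.66, 10.63, 10.52 and 10.47 in FD and 10.72, 10.97, 10.90 and 10.84 in wildtype samples. All FD samples lay below all wildtype samples, with means of 10.57 ± 0.09 (SD, n = 4) and 10.86 ± 0.10 (SD, n = 4). The log2 fold change was -0.29 with an SE of 0.073 (1.22-fold lower, unadjusted p = 0.00361, limma adjusted p = 0.0771), and it passed the threshold without wildtype 1 (adjusted p = 0.0404). Kcnb2 was named by the study from these samples.

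Of the silent subunits, which join Kcnb channels, none was called. Kcns1, a gene known from work on pain sensitivity, read 10.62, 10.66, 10.46 and 10.37 in FD and 11.14, 10.49, 10.89 and 10.84 in wildtype samples (log2 fold change -0.31 with SE 0.13, limma adjusted p = 0.267). Kcns3 read 13.07, 13.09, 13.09 and 13.02 in FD and 13.12, 13.12, 13.08 and 13.03 in wildtype samples, with a narrow interval around 0 (log2 fold change -0.02, 95% interval -0.14 to 0.09). Kcng4 read 6.70, 6.67, 6.52 and 6.49 in FD and 6.94, 6.67, 6.77 and 6.74 in wildtype samples (log2 fold change -0.19 with SE 0.079, limma adjusted p = 0.27). All 4 Kcng genes were negative, from -0.41 for Kcng1 to -0.07, and Kcng1 was -0.15 without wildtype 1. Kcns1 was highest in wildtype 1 as well and was -0.21 without it. Kcns2, Kcnf1 and Kcnv1 had log2 fold changes of 0.09 (SE 0.16), -0.09 (SE 0.13) and -0.04 (SE 0.069).

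Kcnc genes encode fast channels that allow high firing rates. Kcnc2 read 10.48, 10.50, 10.57 and 10.53 in FD and 10.32, 10.34, 10.37 and 10.33 in wildtype samples. The groups were separate and both were tight, at 10.52 ± 0.036 (SD, n = 4) and 10.34 ± 0.022 (SD, n = 4). The difference was nevertheless small (log2 fold change 0.18 with SE 0.049, 1.13-fold, unadjusted p = 0.00552, limma adjusted p = 0.0981). Kcnc4, which speeds repolarization in nociceptors, read 11.25, 11.42, 11.26 and 11.13 in FD and 11.86, 11.29, 11.47 and 11.57 in wildtype samples. Its groups overlapped (log2 fold change -0.28 with SE 0.12, limma adjusted p = 0.264), and without wildtype 1 the value was -0.18.

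Kcnd channels are the partners of the KChIP proteins, and their 3 tested genes were all negative by the brightest probe. Kcnd1 read 12.09, 12.05, 12.13 and 12.00 in FD and 12.10, 12.21, 12.21 and 12.16 in wildtype samples. Its log2 fold change was -0.10 with SE 0.055 (limma adjusted p = 0.367). Of its other tested probes, the brighter gave -0.09 (SE 0.058) and the dimmer 0.28 (SE 0.12). Kcnd3 read 14.26, 14.31, 14.34 and 14.26 in FD and 14.54, 14.49, 14.38 and 14.34 in wildtype samples (log2 fold change -0.14 with SE 0.062, limma adjusted p = 0.276). A second Kcnd3 probe read 7.30, 7.30, 7.32 and 7.17 in FD and 7.82, 7.43, 7.45 and 7.48 in wildtype samples, with the same direction and no overlap (log2 fold change -0.27 with SE 0.094, limma adjusted p = 0.178). Kcnd2 was at -0.29 (SE 0.20) with overlapping groups.

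Kcnh genes encode channels of the ether-a-go-go family. Kcnh3 read 7.91, 7.82, 8.11 and 8.05 in FD and 8.71, 8.15, 8.24 and 8.46 in wildtype samples. FD samples were all lower, though FD 3 and wildtype 2 were close. The log2 fold change was -0.42 with an SE of 0.13 (1.34-fold lower, unadjusted p = 0.00893, limma adjusted p = 0.124), and it was -0.31 without wildtype 1. Kcnh4 had a log2 fold change of 0.23 (SE 0.078) with overlapping groups. Of the 8 Kcnh genes, 6 were negative.

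Several of the Kcnq genes encode subunits of the M current, a slow current that damps excitability. Kcnq3 read 6.40, 6.47, 6.29 and 6.10 in FD and 6.69, 6.11, 6.39 and 6.61 in wildtype samples (log2 fold change -0.14 with SE 0.14). Kcnq5 read 8.34, 8.57, 8.26 and 8.31 in FD and 8.24, 8.19, 8.54 and 8.60 in wildtype samples (log2 fold change -0.02 with SE 0.11). Both groups overlapped in each gene. Among the 21 members with several tested probes, 9 had probes of both signs. In Kcna7 the dimmer probe placed all FD samples at or above the highest wildtype sample and read 6.79, 7.02, 6.97 and 6.87 in FD and 6.42, 6.79, 6.30 and 6.36 in wildtype samples (log2 fold change 0.45 with SE 0.11, limma adjusted p = 0.0687) against -0.06 (SE 0.071) by its brightest probe.

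**Figure D4:**
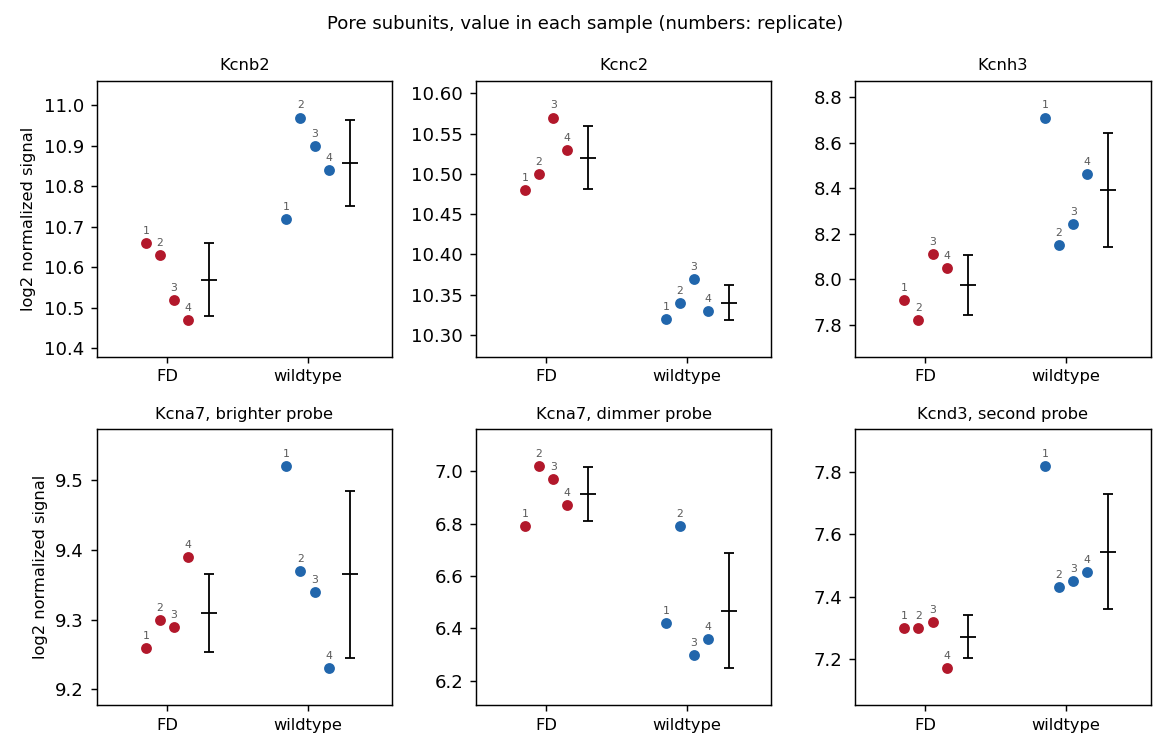
Log2 normalized signal of pore subunit probes in each of the 4 FD (red) and 4 wildtype (blue) samples, with replicate numbers above the points and the mean ± SD in black; the vertical scale differs between panels and does not start at 0. Kcnb2, Kcnh3 and the second Kcnd3 probe lie lower and Kcnc2 higher in all FD samples, by at most 0.42 on the log2 scale between group means, and the 2 Kcna7 probes differ in direction.

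The 2 noncoding RNAs were not called. Kcnd3os had a log2 fold change of 0.12 (SE 0.12) and Kcnq1ot1, which lies antisense to Kcnq1, of -0.06 (SE 0.21).

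Genes whose products anchor, traffic or modulate Kv channels were read beside the members. Of 21 such partner genes, all tested, 1 was called higher and 0 lower, a share near the 3.12% of all tested genes, with 10 positive and 11 negative values and a median log2 fold change of -0.02. The called gene was Cntnap2, which encodes Caspr2, the adhesion protein that gathers Kcna1 and Kcna2 channels at the axon. It read 12.31, 12.40, 12.34 and 12.40 in FD and 12.11, 11.90, 12.12 and 12.00 in wildtype samples (log2 fold change 0.33 with SE 0.066, 1.26-fold, limma adjusted p = 0.0345). Of 4 transcriptional and epigenetic regulators of Kv channel genes, none was called (0 of 4 also at an unadjusted p under 0.05 in limma).

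Markers of the cell types in the ganglion were checked beside these results. Of 9 markers of large-diameter neurons 1 was called higher (again Cntnap2), and of 9 markers of small-diameter neurons 1 was called higher (Tac1, the substance P precursor, log2 fold change 0.34, limma adjusted p = 0.0493). At an unadjusted p under 0.05 in limma, 3 small-diameter markers were higher and 4 lower, and 6 of the 9 were negative. Of the large-diameter markers 1 was higher and 1 lower at that p, and 4 of the 9 were negative. Over all tested genes the shares were 10.6% higher and 7.11% lower. Mrgprd, a marker of nonpeptidergic nociceptors, was at -0.25 (limma adjusted p = 0.0546), and Avil, a sensory neuron marker, at -0.27 (limma adjusted p = 0.0565). Ret, which marks the same nonpeptidergic neurons, was at -0.28 (limma adjusted p = 0.0605). No marker of satellite glia, Schwann cells, macrophages, endothelium, smooth muscle or fibroblasts was called by limma, while 8 of these 40 tested markers had an unadjusted p under 0.05 (1 higher and 7 lower, compared with 10.6% higher and 7.11% lower of all tested genes). All 7 Schwann cell, 4 smooth muscle and 6 fibroblast markers tested were negative, and the macrophage markers were negative in 8 of 9, the exception being the lysosomal protein gene Cd68 (log2 fold change 0.51, limma adjusted p = 0.0573). Dcn, a fibroblast proteoglycan gene, was at -0.29 (limma adjusted p = 0.0806). Des was not tested. Whether these marker values have a part in the Kcne3, Kcne1l or Kcnip2 values was not tested.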

How the data were processed

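The authors isolated total RNA, labelled it with Cy3 and hybridized it to 1-color Agilent arrays, which were read with Agilent Feature Extraction 10.7.3.1 per the labels. The deposited scanner files hold processed signal intensity, already background-subtracted. The deposited series table holds log2 values that the authors quantile normalized, and was used as an alternative.

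Control and outlier spots were left out, log2 intensities were averaged per probe and quantile normalized over 55681 probes, and 29432 probes well above background on all 8 arrays (at least 0.5 of their spots) were tested with limma 3.58.1 in R 4.3.3 and Benjamini-Hochberg adjustment. The limma step was tested on simulated data. SDs are over 4 samples, each a pool of 2 mice. The members and gene lists were chosen with earlier results of these data known. Values in all 8 samples are given for members with an adjusted p under 0.05 or an unadjusted p of at most 0.01, for members the study names and for subunits known from sensory neurons. A few members count in the totals but are not reported here. The other members are given by value, range or count, and of partner and marker lists those called or with an unadjusted p of at most 0.01 are named. Probe sequences and mm9 positions come from the scanner files. Gene symbols of the array were updated through RefSeq transcripts where these matched, and no member symbol changed. Alternatives were normexp background correction (offset 50), 75th percentile scaling, 2 other background filters, the methods' t-test, the replicate block, the slide row as a block, array weights, the deposited table, the mean of a gene's probes and leaving out each sample. No columns of the authors' own comparisons were used.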

Additional observations from a re-analysis of the deposited data

Results flagged for a closer look

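In 42 groups of 4 samples (both genotypes of 21 members), 1 value stood far from the other samples of its group. Chance gives about 1 in 20 groups. Kcnab2 read 8.51 in FD 3, below 8.74 to 8.78 in the other FD samples, and its gap took 0.841 of the range of the group.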

How the results depend on the processing

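Kcne3 kept its direction and its call by both probes under all alternatives run. Kcnip2 and Kcne1l kept their direction but were called under 8 of 18 alternatives each. The number of accessory genes called was 3, and it was 1 with the replicate block, with the slide row as a block, with no filter on background and with the methods' t-test, and 1 to 3 when single samples were left out. The number of pore genes called was 0, and it was 1 with normexp background correction (Kcnb2) and the methods' t-test (Kcnc2), 2 with array weights (Kcnb2 and Kcnh3), and 0 to 1 when single samples were left out, the 1 being Kcnb2 without wildtype 1. Of all probes 904 were called, against 2102 with array weights, 284 with the replicate block, 556 with no filter on background, 266 with the methods' t-test and 414 to 1038 when single samples were left out. The causes of these differences were not tested. Replicate numbers do not pair the samples, since deviations of same-numbered samples correlated at 0.063, -0.245, -0.047 and -0.021, and 1 of 4 FD samples correlated best with its own number. With the replicate block, 1 accessory gene (Kcne3) and 0 pore genes were called.

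Log2 fold changes near 0 changed sign, and the cause was not tested. Kcnab1 was 0.05 with 75th percentile scaling and 0.03 with the slide row as a block, Kcns3 was 0.02 with 75th percentile scaling, and with the slide row Kcnq5 was 0.01 and Kcns2 -0.06. With the mean of all tested probes, Kcnd1 was 0.03 and Kcna5 -0.02. Leaving out single samples gave ranges of -0.04 to 0.01 for Kcnab1, -0.40 to 0.00 for Kcnab2, -0.09 to 0.05 for Kcnq5 and -0.01 to 0.26 for Kcns2. With 4 samples per group, a median SE of 0.102 on the log2 scale limits what could be seen in the pore genes. The median of all tested features was between 0.007 and 0.027 under every setting.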
